A study of Mus musculus with 100 samples.

Results

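Injured knee joints of STR/ort mice were compared with injured knee joints of MRL/MpJ mice at 1-day post-injury, gene by gene, in 5 libraries of each strain. These 10 libraries, of 100 in the series, were taken by their labels (strain, injured joint, 1-day), and all 17310 genes of the count table were tested. In every mouse of these groups the right knee of a 10 weeks old animal had been injured by a single compressive load of 10-12 N on the tibia, a non-invasive way to rupture the anterior cruciate ligament (ACL). The mice were anesthetized with isoflurane for the load and given the analgesic buprenorphine after it, and no transgene is named. The labels describe STR/ort as highly susceptible and MRL/MpJ as not susceptible to post-traumatic osteoarthritis, and C57BL/6 as moderately susceptible; its 5 injured libraries at 1-day are given beside some results. Uninjured contralateral joints of the same strains (5 libraries each) and joints of uninjured mice at 0-day (4 libraries each) show the difference between strains without a direct injury of the joint. The contralateral joint comes from a mouse that was injured on the other side. Each strain is 1 inbred background, so that any gene, allele or earlier history that differs between STR/ort and MRL/MpJ is part of every difference below.

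RNA came from the whole joint, cut at the femoral and tibial edges with traces of soft tissue, so cartilage, synovium, ligament, bone, marrow and attached muscle are read together. Within the first day after such an injury the joint bleeds, synovial cells and resident macrophages release chemokines and cytokines, and neutrophils and monocytes enter. Chemokines of the CXC family with a glutamate-leucine-arginine motif attract neutrophils, CC chemokines such as Ccl2 attract monocytes, and interleukin 6 (Il6) and its relatives signal through the receptor chain gp130. Metalloproteinases and aggrecanases then cut collagen and proteoglycan, and TIMPs inhibit them.

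Called genes are those past a fold of 1.5 with an adjusted p under 0.05 in the quasi-likelihood test of edgeR, fitted on all 30 libraries of 1-day, with p-values adjusted by Benjamini and Hochberg. Values of other days come from the same test fitted on the libraries of each day alone. The p-values measure the spread between libraries, which the labels number within a group. Fold changes are log2 values of STR/ort minus MRL/MpJ, given with their standard error (SE), and levels are CPM (counts scaled to library size) of single libraries, in the order of replicates 1 to 5, MRL/MpJ first. The 10 libraries held 8291716 to 13316883 counts. The first principal component carried 65.7% of their variance and put all STR/ort libraries on one side and all MRL/MpJ libraries on the other. Injured libraries numbered 5 stood apart on the second (10.2%), where each was the highest of its strain. The transcripts that define the labelled tissue were present in each library, with Prg4 at 2269 CPM or more and a summed level of the 15 measured cartilage markers at 4606 CPM or more.

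Promoters are shown for a small set of the inflammatory genes called higher, neutrophil chemokines and Il6. They were chosen because they hold a given type of sequence, so that sharing it follows from the choice. Of the CC and CXC chemokines and IL-6 family genes called higher in injured STR/ort, 17 have an entry in the RefSeq promoter table (GRCm38.p6), and 4 of these hold GGGA, any base and TTTCC in a row, the letters of an NF-kB type site, on either strand, in the 300 bases from 250 before to 50 after the start. These 4 are 23.5% of the 17. A gene counts when any of its promoters in the table holds the letters, as 0.466% of all 27025 genes there do. For each, the 120 bases right before the start are given 5′ to 3′, with the match in capitals. All 4 genes lie on the plus strand of chromosome 5, with these stretches at chr5:90891125-90891244 (Cxcl1), chr5:90903779-90903898 (Cxcl2), chr5:90785981-90786100 (Cxcl3) and chr5:30012994-30013113 (Il6).
Cxcl1: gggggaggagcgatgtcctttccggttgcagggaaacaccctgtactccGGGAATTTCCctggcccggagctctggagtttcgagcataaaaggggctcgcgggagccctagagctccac
Cxcl2: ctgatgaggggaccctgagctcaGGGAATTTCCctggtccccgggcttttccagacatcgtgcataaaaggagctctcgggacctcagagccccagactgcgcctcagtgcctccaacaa
Cxcl3: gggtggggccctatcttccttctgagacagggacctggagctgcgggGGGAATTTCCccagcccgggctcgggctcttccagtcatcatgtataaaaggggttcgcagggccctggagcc
Il6: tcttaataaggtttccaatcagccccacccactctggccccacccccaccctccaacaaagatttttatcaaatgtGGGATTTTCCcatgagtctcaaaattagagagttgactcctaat
The match begins 71 bases before the start in Cxcl1, 97 in Cxcl2, 73 in Cxcl3 and 44 in Il6. Cxcl1, Cxcl2 and Cxcl3 are neighbouring, related genes and carry the same letters there. Of the 2 genes called lower with an entry, 0 hold the NF-kB type letters. Ccl2, Ccl7, Cxcl5 and Cxcl16, also called higher, have no entry. Uncalled members of these families were not searched. An AP-1 type sequence, TGANTCA, was found in 5 of the 17 (29.4%, against 8.97% of all genes), GAAA followed after any 2 bases by GAAA, of an interferon response type, in 1 (5.88%, against 3.99%) and TATAAA in 5 (29.4%, against 15.7%). A match is a stretch of letters in the reference sequence; binding was not measured, and the alleles of STR/ort and MRL/MpJ may differ from it.

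Injured STR/ort and MRL/MpJ joints differed in 3506 of 17310 genes (20.3%). In STR/ort 1764 genes were higher (10.2%) and 1742 lower (10.1%). When libraries were scaled to the 25 housekeeping genes named by the study in place of TMM factors, the median of all genes moved by -0.18, and 1099 of 3785 called genes were higher (29.0%) against 50.3% under TMM. The values below are therefore relative to the bulk of genes. Of the housekeeping genes themselves 1 of 25 was called higher and 0 lower (median 0.25). Under housekeeping scaling the medians of the IL-1, complement, prostaglandin, chemokine receptor, white fat and endothelial lists given below were negative (-0.13, -0.06, -0.04, -0.17, -0.09 and -0.17), as were those of the heat shock, mast cell and Toll-like receptor lists (-0.14, -0.15 and -0.0018). Differences over 4-fold were found for 213 of the genes that were higher and 205 of those that were lower. All 5 STR/ort libraries lay above all 5 MRL/MpJ libraries in 2696 genes (15.6%) and below them in 2443 (14.1%), 5139 in all (29.7%).

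Most called differences were also called in contralateral joints of the injured mice, and fewer than these were called at 0-day. The contralateral joints differed in 3913 genes (22.6%), 2262 higher (13.1%) and 1651 lower (9.54%) in STR/ort. A total of 2765 genes were called the same way in injured and contralateral joints, which is 78.9% of the injured and 70.7% of the contralateral list. Before injury, at 0-day, 2558 genes differed (14.8%), 1444 higher (8.34%) and 1114 lower (6.44%). Of the genes higher in injured STR/ort 828 (46.9%) were called the same way there, and of those lower 625 (35.9%). Later injured joints differed in 5101 genes at 1-week (29.5%, 15.0% higher and 14.5% lower) and 3263 at 2-weeks (18.9%, 11.0% higher and 7.89% lower). The 2-weeks libraries are of another experimental batch in the labels. In all, 586 genes were higher and 452 lower in STR/ort in injured and contralateral joints at 1-day, at 0-day and in injured joints at 1-week and 2-weeks. Conversely, 268 higher and 354 lower genes were called in injured joints and neither in contralateral joints nor at 0-day. For 0 of the 268 and 0 of the 354 was the interaction called in the same direction, so their restriction to injured joints is not shown by a test.

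**Figure D1:**
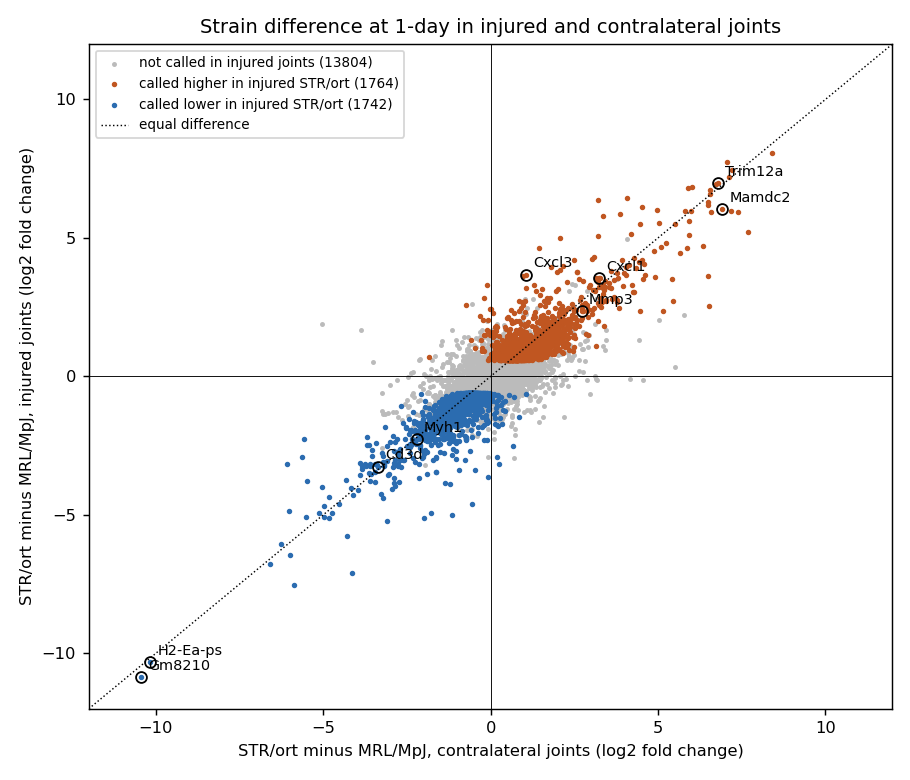
Log2 fold change of STR/ort minus MRL/MpJ in contralateral (horizontal) and injured joints (vertical) at 1-day, 1 point per gene, with the 1764 genes called higher and the 1742 called lower in injured STR/ort in colour and named genes ringed. Called genes lie along the dotted line of equal difference, while Cxcl3 lies above it.

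The share of muscle, red cell and lymphocyte transcripts differed between the injured joints of both strains. All 14 fast muscle genes were lower in STR/ort, with a median of -1.17 against 0.01 for all genes, and their summed level was 19896 to 51518 CPM in STR/ort and 55308 to 97047 CPM in MRL/MpJ. The fast myosin gene Myh1 was at 4999, 3779, 4176, 3954 and 5864 CPM in MRL/MpJ and at 667, 798, 740, 572 and 1942 CPM in STR/ort. Every MRL/MpJ library was above every STR/ort library (-2.27, SE 0.27, adjusted p = 7.06e-08). Ryr1, the calcium release channel of muscle, was lower as well (-2.10, SE 0.23, adjusted p = 8.18e-09), and so was Ckm, muscle creatine kinase (-1.40, SE 0.24, adjusted p = 1.67e-05). All 14 were also called lower with RLE factors and with housekeeping scaling. With 1 RUVg factor, the kind of correction the study names, 1 of the 14 genes was called lower, 0 were called higher and the median was 0.02. That factor itself follows the muscle transcripts, with a Pearson correlation of -0.89 to the log2 summed fast muscle level over the 30 libraries, given as a description since these fall into 6 groups, and the part of muscle in the lost calls was not tested. In contralateral joints 12 of 14 were lower (median -0.86), and at 0-day 2 of 14 (median -0.00). In bulk tissue, fewer cells of a type and less RNA per cell cannot be told apart. Ppargc1a, a regulator of mitochondrial genes in muscle and brown fat, was also lower, at 16.5 to 23.4 CPM in MRL/MpJ and 1.96 to 7.12 CPM in STR/ort (-2.51, SE 0.25, adjusted p = 2.62e-09).

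Of 10 slow muscle genes 3 were called higher in STR/ort (median 0.91), and these calls rest on the libraries numbered 5. Myh7, the slow myosin gene, was at 39.4, 27.8, 35.6, 9.49 and 68.8 CPM in MRL/MpJ and at 15.6, 72.3, 37.9, 34.9 and 373 CPM in STR/ort. The groups overlap, STR/ort replicate 5 is far above the rest, and without that library the difference fell from 1.55 (SE 0.65, adjusted p = 0.0488) to 0.16 (adjusted p = 0.846). Leaving out any one of injured MRL/MpJ replicates 1 to 4 also ended the call (adjusted p = 0.0696, 0.0887, 0.0780 and 0.118). Without both injured libraries numbered 5, 0 of the 10 genes were called higher and 1 lower. With the RUVg factor 5 were higher (median 2.15). In contralateral joints 5 of 10 were higher (median 1.26) and at 0-day all 10 (median 1.99).

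Red cell transcripts were lower in STR/ort in 9 of 10 genes (median -0.97), with a summed level of 2152 to 3084 CPM against 5216 to 6076 CPM in MRL/MpJ. Slc4a1, the band 3 anion exchanger of the red cell membrane, was at 2407, 2267, 2551, 2326 and 2210 CPM in MRL/MpJ and at 1246, 888, 1120, 1145 and 847 CPM in STR/ort, without overlap (-1.16, SE 0.13, adjusted p = 1.39e-08). As many, 9 of 10, were called lower with housekeeping scaling and with the RUVg factor, and 10 of 10 at 0-day. Mki67, a gene of dividing cells, was lower too (-0.94, SE 0.13, adjusted p = 4.12e-07), with 2 of 18 cell cycle genes called lower and 0 higher, or 6 lower and 0 higher with the RUVg factor.

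B cell genes were higher in STR/ort in 13 of 14 (median 1.06), and their summed level was 407 to 584 CPM against 234 to 276 CPM. Vpreb3, of the B cell precursor receptor complex, was at 11.7, 12.02, 11.2, 14.3 and 10.1 CPM in MRL/MpJ and at 27.6, 39.3, 48.1, 36.3 and 30.7 CPM in STR/ort. No library of one strain entered the range of the other (1.63, SE 0.13, adjusted p = 1.29e-11). The recombinase gene Rag1 was higher by 1.43 (SE 0.15, adjusted p = 7.37e-09). With the RUVg factor 8 of the 14 B cell genes were called higher. In contralateral joints 13 were higher and 0 lower (median 1.05), and at 0-day 8 and 1 (median 0.66). Between injured joints it was 1 and 1 at 1-week (median 0.11) and 6 and 1 at 2-weeks (median 0.50).

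T cell genes went the other way, with 5 of 14 lower in STR/ort and 0 higher (median -0.47). Cd3d, a chain of the T cell receptor complex, was at 30.3, 21.04, 27.995, 26.4 and 26.6 CPM in MRL/MpJ and at 2.73, 2.42, 2.07, 3.14 and 3.34 CPM in STR/ort. The gap between the groups was far wider than their spread (-3.26, SE 0.17, adjusted p = 9.28e-16), and the C57BL/6 libraries were at 4.66 to 7.67 CPM. Cd4, the helper T cell co-receptor, differed less (-0.78, SE 0.14, adjusted p = 3.27e-05). Of 15 marrow neutrophil genes 1 was higher and 0 lower (median -0.16), and of 14 endothelial genes 3 were higher and 1 lower (median 0.01).

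**Figure D2:**
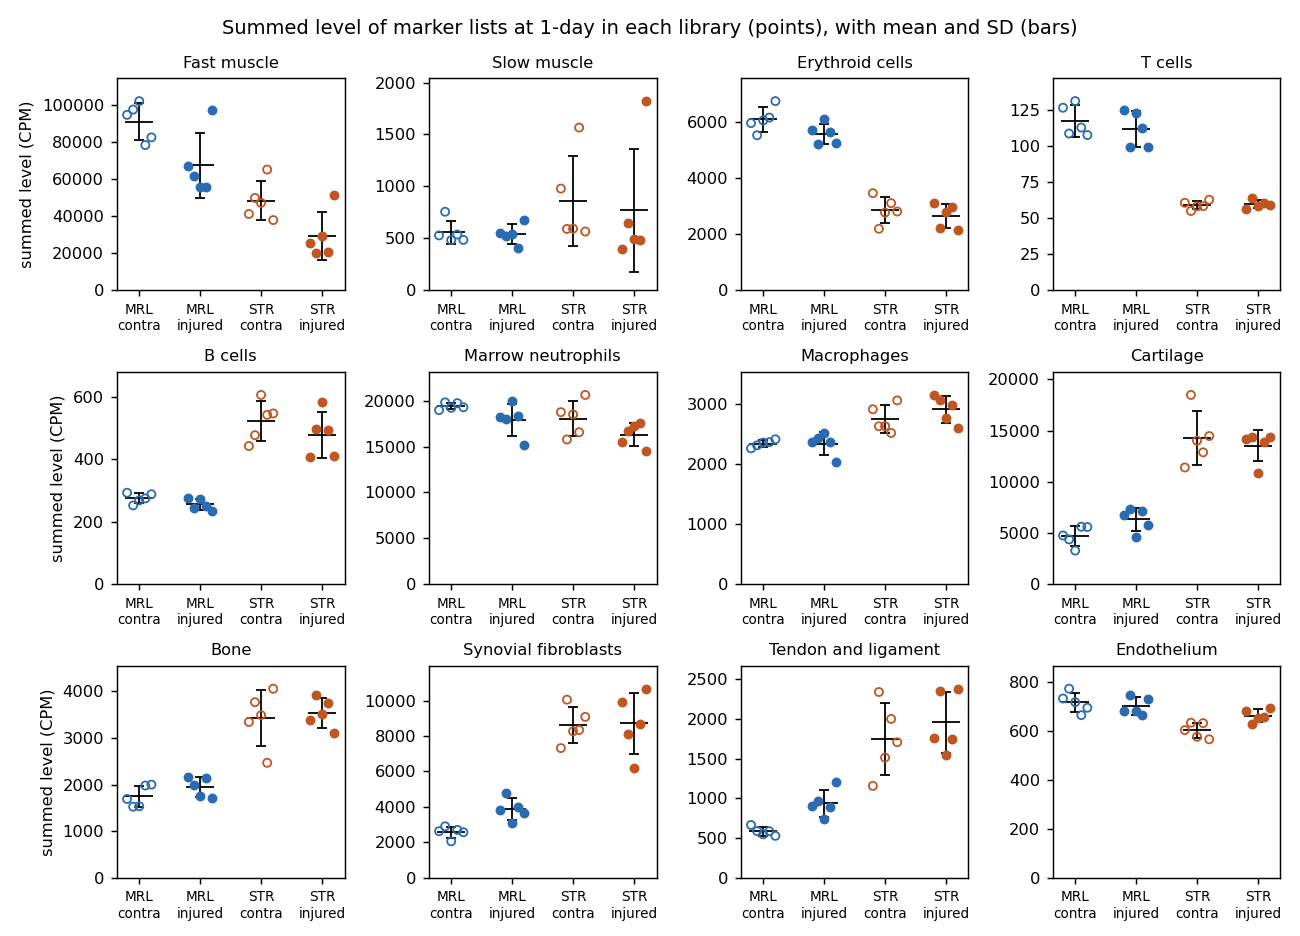
Summed level in CPM (vertical, from 0) of 12 marker lists in each library at 1-day, contralateral (open) and injured (filled) joints of MRL/MpJ and STR/ort, with mean and SD of 5 libraries. Fast muscle, red cell and T cell sums were lower in injured STR/ort without overlap with injured MRL/MpJ, B cell, cartilage, bone and tendon sums were higher, as was the synovial fibroblast sum, which is mostly Prg4, and among injured joints libraries numbered 5 are highest in fast muscle.

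Of 13 measured CXC chemokines 7 were higher in injured STR/ort and 0 lower (median 0.91), and the same numbers were called without both libraries numbered 5, against 6 higher and 1 lower with the RUVg factor. Ppbp, a neutrophil attractant of platelets that is named here after its values were seen, did not pass (-0.21, SE 0.11, adjusted p = 0.122), at a mean of 356 CPM in MRL/MpJ and 306 CPM in STR/ort. Cxcl1, a neutrophil attractant (chr5:90891245-90893121), was at 1.58, 3.54, 2.28, 2.77 and 2.01 CPM in MRL/MpJ and at 19.99, 31.1, 28.4, 29.4 and 35.7 CPM in STR/ort. The lowest STR/ort library was above the highest MRL/MpJ library (3.56, SE 0.29, adjusted p = 3.52e-11). C57BL/6 joints, at 2.23 to 4.49 CPM, overlapped with MRL/MpJ and not with STR/ort.

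Cxcl2, of the same group, was at 0.494, 0.265, 0.0949, 0.358 and 0.457 CPM in MRL/MpJ and at 3.42, 3.42, 2.62, 3.73 and 2.25 CPM in STR/ort (3.18, SE 0.27, adjusted p = 8.70e-11). The MRL/MpJ values are a few counts each, so this fold is imprecise. Cxcl3 was at 0.296, 0.442, 0.380, 0.895 and 0.274 CPM in MRL/MpJ and at 5.72, 8.81, 7.38, 6.51 and 1.62 CPM in STR/ort (3.68, SE 0.37, adjusted p = 2.58e-09), with STR/ort replicate 5 the lowest of its group and still above every MRL/MpJ library. Among the alternative fits the lowest value of Cxcl3 was 2.18, and its largest adjusted p was 0.0287, with the RUVg factor. Cxcl5 was at 4.34, 8.05, 4.27, 5.01 and 6.04 CPM in MRL/MpJ and at 37.0, 46.4, 45.4, 38.7 and 15.5 CPM in STR/ort (2.72, SE 0.29, adjusted p = 9.30e-09). The C57BL/6 range for Cxcl5, 5.94 to 30.7 CPM, reached into both groups.

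In contralateral joints Cxcl1 (3.24, adjusted p = 6.02e-06) and Cxcl5 (1.01, adjusted p = 0.0465) were also higher in STR/ort, while the differences of Cxcl2 (1.07, adjusted p = 0.0807) and Cxcl3 (1.07, adjusted p = 0.336) did not pass the test at levels of less than 1 CPM. At 0-day Cxcl1 (adjusted p = 1.61e-07), Cxcl2 (2.45, adjusted p = 0.0153) and Cxcl5 (1.49, adjusted p = 2.44e-03) were higher in STR/ort, and Cxcl3 differed by 2.14 (adjusted p = 0.157). For 0 of the 13 was the interaction of strain and injury called, with 2.61 (adjusted p = 0.707) for Cxcl3 and 2.11 (adjusted p = 0.334) for Cxcl2, so a larger difference in injured joints is not shown.

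Of 19 CC chemokines 9 were higher and 2 lower (median 0.65). In contralateral joints 8 were higher and 2 lower (median 0.40), and at 0-day 7 and 2 (median 0.51). The monocyte attractant Ccl2 (chr11:82035577-82037452) was at 10.8, 13.1, 8.73, 11.0 and 10.1 CPM in MRL/MpJ and at 42.0, 36.8, 32.8, 33.0 and 22.2 CPM in STR/ort, without overlap (1.64, SE 0.25, adjusted p = 2.60e-06). Its neighbour Ccl7, with a like function, was at 11.1, 16.9, 10.5, 11.5 and 12.3 CPM and at 35.3, 44.5, 35.9, 38.7 and 36.2 CPM (1.61, SE 0.27, adjusted p = 1.06e-05). In both strains the 2 genes were among those that rose with injury: Ccl7 by 4.61 in MRL/MpJ and 4.29 in STR/ort over contralateral joints. The RUVg factor left Ccl2 at 1.13 (adjusted p = 0.108) and 3 of the 19 called higher. Ccl8, another monocyte attractant, was at 1.88 to 3.98 CPM in MRL/MpJ and 4.15 to 8.26 CPM in STR/ort (0.93, SE 0.34, adjusted p = 0.0253), and leaving out injured MRL/MpJ replicate 1 (0.83, adjusted p = 0.0622) or 5 (0.87, adjusted p = 0.0540), or injured STR/ort replicate 2 (0.76, adjusted p = 0.0818), ended this call. Ccl19, which guides lymphocytes and dendritic cells, was lower, at 4.84, 2.92, 3.51, 3.76 and 4.85 CPM in MRL/MpJ and at 0.171, 0.661, 0.828, 0.292 and 0.361 CPM in STR/ort (-3.05, SE 0.31, adjusted p = 3.39e-09). In contralateral joints Ccl2, Ccl7, Ccl8 and Ccl19 differed by 1.77, 1.94, 2.45 and -3.10. At 0-day they differed by 3.57, 3.82, 3.25 and -3.69, and all of these differences were called. Of 18 chemokine receptors 4 were higher and 2 lower (median 0.01), and with the RUVg factor 2 were higher and 4 lower.

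In the IL-6 family 5 of 15 genes were higher and 1 lower (median 0.27). Il6 (chr5:30013114-30019975) was at 1.18, 2.03, 0.759, 1.25 and 1.37 CPM in MRL/MpJ and at 5.55, 7.05, 5.38, 5.26 and 9.92 CPM in STR/ort (2.31, SE 0.28, adjusted p = 8.88e-08). Il11, a cytokine of connective tissue, was at 3.55, 6.54, 2.47, 5.37 and 2.47 CPM and at 17.1, 22.1, 13.2, 18.2 and 12.4 CPM (2.01, SE 0.26, adjusted p = 2.28e-07). The groups of both cytokines do not overlap. In C57BL/6 the ranges were 0.371 to 2.44 CPM for Il6 and 1.58 to 6.44 CPM for Il11, both overlapping with MRL/MpJ and below STR/ort. Among receptors, Il11ra1, the specific receptor chain of IL-11, was higher (1.23, SE 0.12, adjusted p = 1.22e-09), and Cntfr, a receptor chain found on nerve and muscle, was lower (-1.78, SE 0.27, adjusted p = 2.72e-06) with overlapping groups, and was at -0.67 (adjusted p = 0.253) with the RUVg factor, under which 0 of the 15 were lower.

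Of 13 IL-1 family genes 3 were higher and 0 lower (median 0.05). Il1b, the main secreted form of IL-1, was at 15.2, 20.9, 16.1, 16.5 and 14.1 CPM in MRL/MpJ and at 46.04, 69.0, 63.6, 62.0 and 56.6 CPM in STR/ort (1.85, SE 0.14, adjusted p = 3.08e-12). The lowest STR/ort library was well above the highest MRL/MpJ library. Injury moved Il1b by 0.77 in STR/ort (adjusted p = 9.74e-05) and by 0.00 in MRL/MpJ, and the interaction (0.76, adjusted p = 0.128) did not pass. Il1a differed by 0.75 (SE 0.16, adjusted p = 2.67e-04), or by 0.21 (adjusted p = 0.649) with the RUVg factor, and Il33, an alarm signal of stromal cells, by 1.00 (SE 0.24, adjusted p = 8.80e-04). Of 16 genes of TNF and NF-kB signalling 7 were higher and 0 lower (median 0.57), and 2 were called higher under housekeeping scaling. The inhibitor Nfkbia (0.77, SE 0.10, adjusted p = 1.46e-07) and the TNF receptor Tnfrsf1b (0.87, SE 0.07, adjusted p = 9.70e-12) did not overlap between the groups. Zfp36, which destabilises cytokine mRNA, fell to 0.57, below the fold threshold, without injured STR/ort replicate 5 (0.76 with it, SE 0.15, adjusted p = 9.97e-05).

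**Figure D3:**
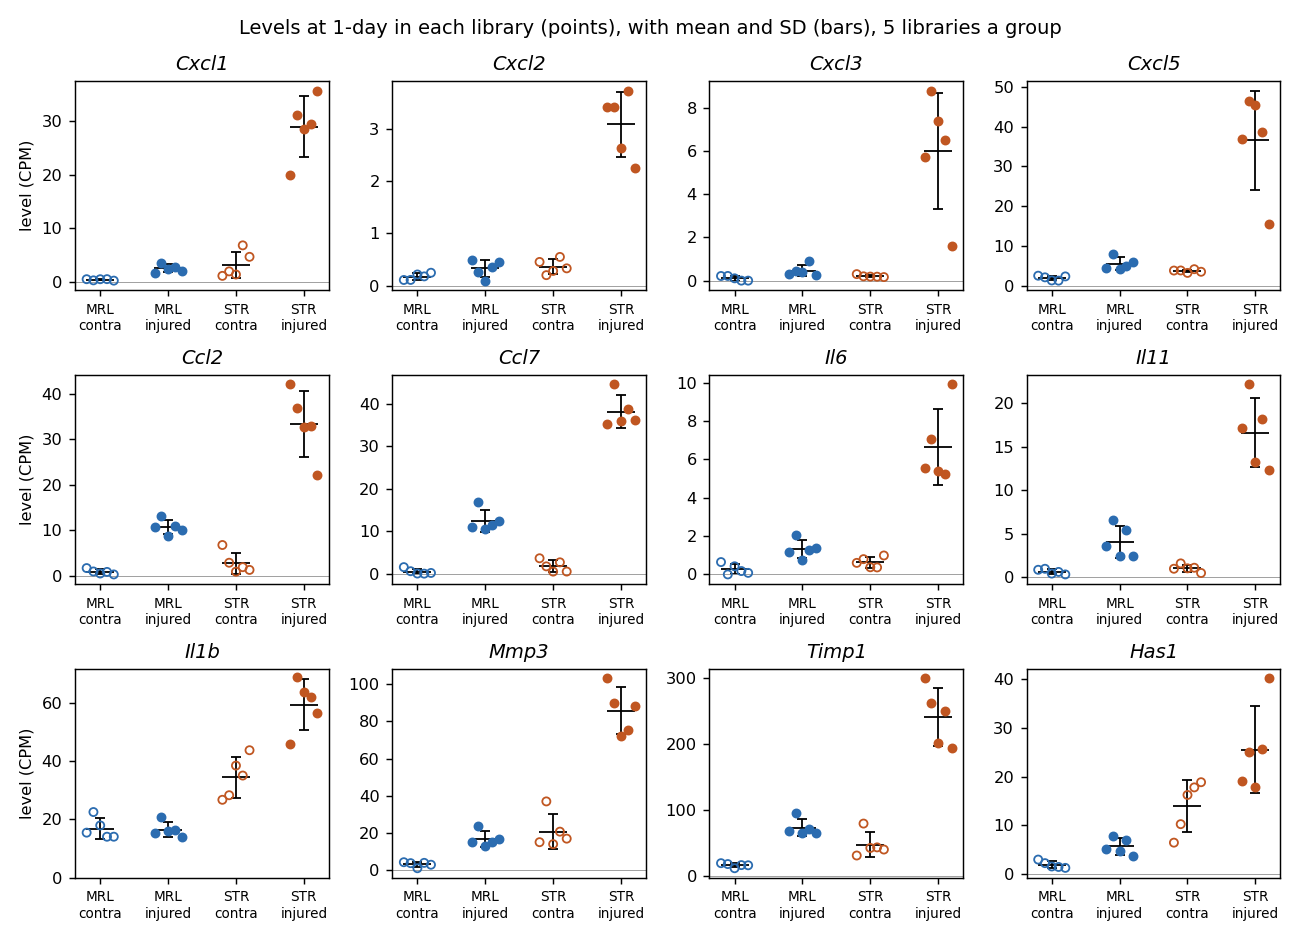
Level in CPM (vertical, linear) of 12 inflammatory and matrix genes in each library at 1-day, with mean and SD of 5 libraries, for contralateral (open) and injured (filled) joints of MRL/MpJ and STR/ort. For each of the 12 genes, every injured STR/ort library lies above every injured MRL/MpJ library.

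Macrophage genes did not move together, with 5 of 15 higher and 3 lower in STR/ort (median 0.37). Vsig4, a complement receptor of resident macrophages, was higher (1.48, SE 0.19, adjusted p = 2.54e-07).

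The secreted macrophage protein gene Cd5l was lower in STR/ort, at 30.8, 22.4, 32.7, 35.5 and 23.96 CPM in MRL/MpJ and at 4.01, 5.18, 1.59, 3.87 and 1.98 CPM in STR/ort (-3.15, SE 0.27, adjusted p = 1.08e-10). Marco, a scavenger receptor, was at 1.58 to 3.70 CPM in MRL/MpJ and had 0 counts in all 5 STR/ort libraries, which puts it at least 40.7-fold lower when 3 counts over the group are taken as the limit of a count of 0.

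Matrix metalloproteinases were higher in 6 of 15 genes and lower in 0 (median 0.33). Mmp3, stromelysin 1, was at 15.3, 23.96, 13.1, 15.4 and 16.6 CPM in MRL/MpJ and at 103, 89.9, 72.0, 75.5 and 88.3 CPM in STR/ort (2.35, SE 0.23, adjusted p = 1.29e-09). The groups are well apart, and the contralateral joints differed too (2.72, adjusted p = 7.39e-09). Mmp13, the collagenase most tied to cartilage loss, was at 355, 350, 340, 454 and 376 CPM and at 771, 845, 710, 655 and 522 CPM (0.91, SE 0.17, adjusted p = 3.93e-05). With the RUVg factor Mmp13 was at 0.25 (adjusted p = 0.568). Mmp12 (1.38, SE 0.35) and Mmp19 (0.97, SE 0.13) were higher as well. Of 18 ADAMTS proteases 8 were higher and 0 lower (median 0.59), among them the aggrecanase Adamts5, at 54.2 to 59.0 CPM in MRL/MpJ and 105.5 to 128 CPM in STR/ort (1.04, SE 0.08, adjusted p = 1.66e-11), and Adamts7 (1.25, SE 0.17, adjusted p = 5.01e-07).

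The inhibitors of these proteases split, with 1 of 4 TIMPs higher and 1 lower. Timp1 was at 68.2, 95.6, 65.0, 71.2 and 64.4 CPM in MRL/MpJ and at 299, 261, 200.1, 249.7 and 194 CPM in STR/ort (1.73, SE 0.19, adjusted p = 1.63e-08). Timp4 was at 6.52, 5.57, 6.64, 6.62 and 7.32 CPM in MRL/MpJ and at 1.03, 0.992, 1.72, 1.39 and 1.71 CPM in STR/ort (-2.21, SE 0.19, adjusted p = 7.11e-11). Neither pair of groups overlaps. C57BL/6 was at 90.1 to 194 CPM for Timp1 and, between both strains, at 1.98 to 3.35 CPM for Timp4. In the plasminogen system 6 of 10 genes were higher and 0 lower (median 0.69), with Plau, urokinase, at 37.7 to 47.7 CPM in MRL/MpJ and 63.2 to 78.6 CPM in STR/ort (0.82, SE 0.11, adjusted p = 3.99e-07).

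Genes of the connective tissue matrix were higher in STR/ort across several lists. The tendon list among them also holds Egr1, an immediate early gene given below, and its relative Egr2. Of 14 collagens 9 were higher and 0 lower (median 0.85), of 12 small leucine-rich proteoglycans 9 (median 1.03), of 19 wound matrix genes 15 (median 0.96), of 15 cartilage genes 11 (median 1.11) and of 8 tendon genes 6 (median 1.09), with 0 lower in each. Prg4, which encodes lubricin, the lubricant of cartilage surface and synovium, was at 3070, 4042, 2269, 3200 and 2897 CPM in MRL/MpJ and at 9031, 7284, 5412, 7852 and 9806 CPM in STR/ort, without overlap (1.35, SE 0.16, adjusted p = 3.48e-08). The fibronectin gene Fn1 was at 1345 to 2130 CPM and 3301 to 5208 CPM (1.37, SE 0.15, adjusted p = 7.25e-09). Col3a1, a collagen of repair tissue, differed by 1.25 (SE 0.17), the cartilage glycoprotein gene Comp by 1.49 (SE 0.19), Prelp by 1.48 (SE 0.15) and Epyc by 1.64 (SE 0.24). Postn (1.10, SE 0.11) and Spp1, osteopontin (1.13, SE 0.13), were among the wound matrix genes. The same lists were higher in contralateral joints, where 14 of 14 collagens, 12 of 12 proteoglycans and 13 of 15 cartilage genes were called, with medians of 1.33, 1.54 and 1.39. With the RUVg factor 12 collagens and 3 cartilage genes were called.

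Of 12 bone genes 5 were higher and 0 lower (median 0.50), and of 12 osteoclast genes 7 and 0 (median 0.59). Ibsp, bone sialoprotein, was at 902 to 1156 CPM in MRL/MpJ and 1735 to 2435 CPM in STR/ort (1.02, SE 0.14, adjusted p = 7.66e-07), and Mepe, of osteocytes, at 77.3 to 91.6 CPM and 136 to 218 CPM (1.18, SE 0.21, adjusted p = 3.15e-05). Tnfsf11, which encodes the osteoclast factor RANKL, was at 4.44, 3.45, 3.32, 3.94 and 1.10 CPM in MRL/MpJ and at 9.74, 11.2, 6.14, 5.78 and 6.401 CPM in STR/ort (1.26, SE 0.24, adjusted p = 7.01e-05). Oscar, an osteoclast receptor, was higher by 1.81 (SE 0.23, adjusted p = 2.04e-07). With the RUVg factor 0 of the bone and 1 of the osteoclast genes were called higher. Of 16 Wnt antagonists and receptors 7 were higher and 0 lower (median 0.40), with the antagonists Dkk1 at 1.37 (SE 0.17, adjusted p = 1.33e-07) and Wif1 at 0.88 (SE 0.12, adjusted p = 4.91e-07).

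Of 11 synovial fibroblast genes 5 were higher and 2 lower (median 0.56). Most of their summed level is Prg4, with 3065 to 4779 CPM in MRL/MpJ and 6191 to 10665 CPM in STR/ort, and without Prg4 the sums overlap, at 736 to 798 CPM and 779 to 887 CPM. The cartilage sum, which also holds Prg4, was without it at 2337 to 3924 CPM and 4537 to 7128 CPM. Has1, a hyaluronan synthase, was at 5.23, 7.78, 4.84, 7.07 and 3.66 CPM in MRL/MpJ and at 19.1, 25.01, 17.8, 25.7 and 40.2 CPM in STR/ort (2.16, SE 0.26, adjusted p = 5.58e-08). Of 19 prostaglandin genes 3 were higher and 0 lower (median 0.15), among them Ptgs2, the inducible cyclooxygenase (1.59, SE 0.23, adjusted p = 1.90e-06), at 3.04 to 4.69 CPM and 6.41 to 17.2 CPM.

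Immediate early genes, which are switched on within minutes by stress and handling, were higher in 8 of 21 and lower in 1 (median 0.48), in part through 1 library. Fos was at 16.2, 16.2, 16.04, 18.8 and 16.6 CPM in MRL/MpJ and at 26.3, 29.1, 39.1, 36.0 and 265 CPM in STR/ort. STR/ort replicate 5 stands far above the other 4, which still lie above MRL/MpJ. Without it the difference of Fos fell from 2.23 (SE 0.61, adjusted p = 3.09e-03) to 0.99 (adjusted p = 0.104), and that of Egr1 from 1.70 (SE 0.46, adjusted p = 2.82e-03) to 0.87 (adjusted p = 0.0592). Without both libraries numbered 5, 5 of the 21 were higher and 0 lower. At 0-day all 21 were higher in STR/ort (median 1.91). Of 14 heat shock genes 0 were higher and 1 lower (median 0.04).

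Genes of muscle injury and atrophy were lower in STR/ort in 9 of 16 and higher in 0 (median -0.83). Ankrd1, a stretch- and injury-induced muscle gene, was at 151, 525, 305, 284 and 571 CPM in MRL/MpJ and at 287, 133, 171, 113 and 131 CPM in STR/ort, with overlap (-1.13, SE 0.35, adjusted p = 9.25e-03). In contralateral joints it was at 18.6 to 47.3 CPM and 23.7 to 41.1 CPM, and it rose with injury in both strains, by 3.58 in MRL/MpJ and 2.28 in STR/ort; the interaction (-1.30, adjusted p = 0.594) did not pass. Fbxo32, a ubiquitin ligase of muscle atrophy, was at 310, 486, 361, 371 and 827 CPM and at 264, 175, 172, 166 and 347 CPM (-1.06, SE 0.25, adjusted p = 7.13e-04). These calls turn with the scaling: with the RUVg factor Ankrd1 was at 0.57 (adjusted p = 0.576) and Fbxo32 at 0.23 (adjusted p = 0.703), with 1 of the 16 called higher and 1 lower. Without both libraries numbered 5 Ankrd1 was at -0.82 (adjusted p = 0.0771). Fast muscle transcripts were lower in the same STR/ort libraries, and their part in these differences was not tested.

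Of 20 complement genes 7 were higher and 0 lower (median 0.12). C4b, complement component 4, was at 12.3, 13.8, 10.1, 10.7 and 12.5 CPM in MRL/MpJ and at 72.5, 73.7, 64.4, 74.8 and 104.7 CPM in STR/ort (2.72, SE 0.15, adjusted p = 9.68e-15). The groups are far apart, and C57BL/6 was at 69.6 to 118 CPM. Of 28 genes of antigen presentation by MHC molecules 16 were higher and 5 lower (median 0.74), and with the RUVg factor 3 were higher and 5 lower. H2-D1, a class I gene, was at 70.8, 56.9, 69.0, 73.4 and 56.6 CPM in MRL/MpJ and at 189, 368, 199, 258 and 264 CPM in STR/ort (1.97, SE 0.14, adjusted p = 2.75e-12). H2-Ab1, a class II gene, was at 35.4 to 48.7 CPM and 109.8 to 225 CPM (1.75, SE 0.16, adjusted p = 5.89e-10). H2-Ea-ps, listed as a pseudogene in the reference strain, was at 10.7 to 18.0 CPM in MRL/MpJ and had 0 counts in all STR/ort libraries, at least 284-fold lower on the limit of 3 counts over the group. MHC genes are near-identical copies of each other and vary between strains, and reads were placed on the C57BL/6 reference, so counts can be split or lost among them.

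Interferon-stimulated genes showed no common direction, with 4 of 22 higher and 2 lower (median -0.04). RLE factors gave the same counts. Housekeeping scaling, under which the median of all genes was -0.17, gave 2 higher and 4 lower (median -0.23). With the RUVg factor 2 were higher and 5 lower (median -0.85). At 0-day 15 of 22 were higher and 0 lower (median 0.99). Ifitm1 was at 5.73 to 9.73 CPM in MRL/MpJ and 24.3 to 38.4 CPM in STR/ort (2.16, SE 0.16, adjusted p = 3.15e-12), while Mx2 was lower (-1.29, SE 0.33, adjusted p = 1.75e-03) with overlap. Ifit3 differed by 0.97 (SE 0.40, adjusted p = 0.0451), with overlapping groups. This call was lost without injured MRL/MpJ replicate 1 (adjusted p = 0.107), 2 (0.0882), 4 (0.0577) or 5 (0.0507) and without injured STR/ort replicate 2 (0.53, adjusted p = 0.276), 4 (0.0578) or 5 (0.0646). In the Trim5 and Trim12 cluster on chromosome 7, whose products restrict viruses, 5 of 12 genes were higher and 3 lower. Trim12a (chr7:104299893-104315558) was at 0, 0.796, 0.0949, 0.448 and 0.183 CPM in MRL/MpJ and at 32.3, 51.6, 36.5, 43.9 and 40.2 CPM in STR/ort (6.98, SE 0.23, adjusted p = 1.32e-20), and at 32.2 to 42.8 CPM in C57BL/6. Without injured MRL/MpJ replicate 2 this difference was 7.71. No count of Trim5 was found in injured MRL/MpJ joints, against 2.39 to 4.30 CPM in STR/ort, at least 52.8-fold higher on the same limit. Trim30d was higher (3.23, SE 0.20) and Trim34b lower (-3.56, SE 0.47). These genes are close copies, and reads shared between them make single values uncertain. Of 10 genes of the Ifi200 family, cytosolic DNA sensors, 3 were higher and 2 lower, with Ifi202b at 1.37 (SE 0.17, adjusted p = 1.01e-07), or 0.77 (adjusted p = 0.0635) with the RUVg factor.

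Of 16 Toll-like receptor genes and their adaptors 4 were higher and 2 lower (median 0.18). Tlr1, which pairs with Tlr2 to sense bacterial lipopeptides, was at 6.18 to 8.83 CPM in MRL/MpJ and 1.89 to 2.65 CPM in STR/ort (-1.67, SE 0.16, adjusted p = 6.72e-10). Cd14, a co-receptor for lipopolysaccharide, was at 4.94 to 8.49 CPM and 16.1 to 21.01 CPM (1.65, SE 0.12, adjusted p = 3.92e-12), and the adaptor gene Ticam2 at 1.43 to 2.30 CPM and 11.4 to 14.7 CPM (2.76, SE 0.15, adjusted p = 7.39e-15).

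Mast cell genes were higher in 2 of 10 and lower in 1 (median 0.03). Tpsab1, a tryptase gene that the reference lists as a pseudogene in C57BL/6, was at 3.46, 3.80, 1.71, 3.22 and 1.83 CPM in MRL/MpJ and at 0.342, 0.551, 0.276, 0.512 and 0.180 CPM in STR/ort (-2.89, SE 0.35, adjusted p = 7.69e-08). The chymase gene Cma1 was at 2.06 to 5.23 CPM and 6.51 to 12.97 CPM (1.43, SE 0.25, adjusted p = 2.39e-05). Mcpt2, a related protease gene that also lies on chromosome 14, was at 0.0915 to 0.265 CPM in MRL/MpJ and 15.7 to 21.3 CPM in STR/ort (6.74, SE 0.29, adjusted p = 7.78e-18), with C57BL/6 at 0.371 CPM or less. Of 21 antioxidant genes 4 were higher and 3 lower (median -0.22), or 4 and 8 under housekeeping scaling (median -0.41). Of 10 white fat genes 2 and 0 (median 0.09), of 6 brown fat genes 0 and 2 (median -0.71), of 3 measured skin genes 1 and 2, and of 11 nerve and Schwann cell genes 3 and 2 (median -0.17). The nerve and Schwann cell counts were 2 and 4 under housekeeping scaling and 2 and 0 with the RUVg factor (median 0.47).

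**Figure D4:**
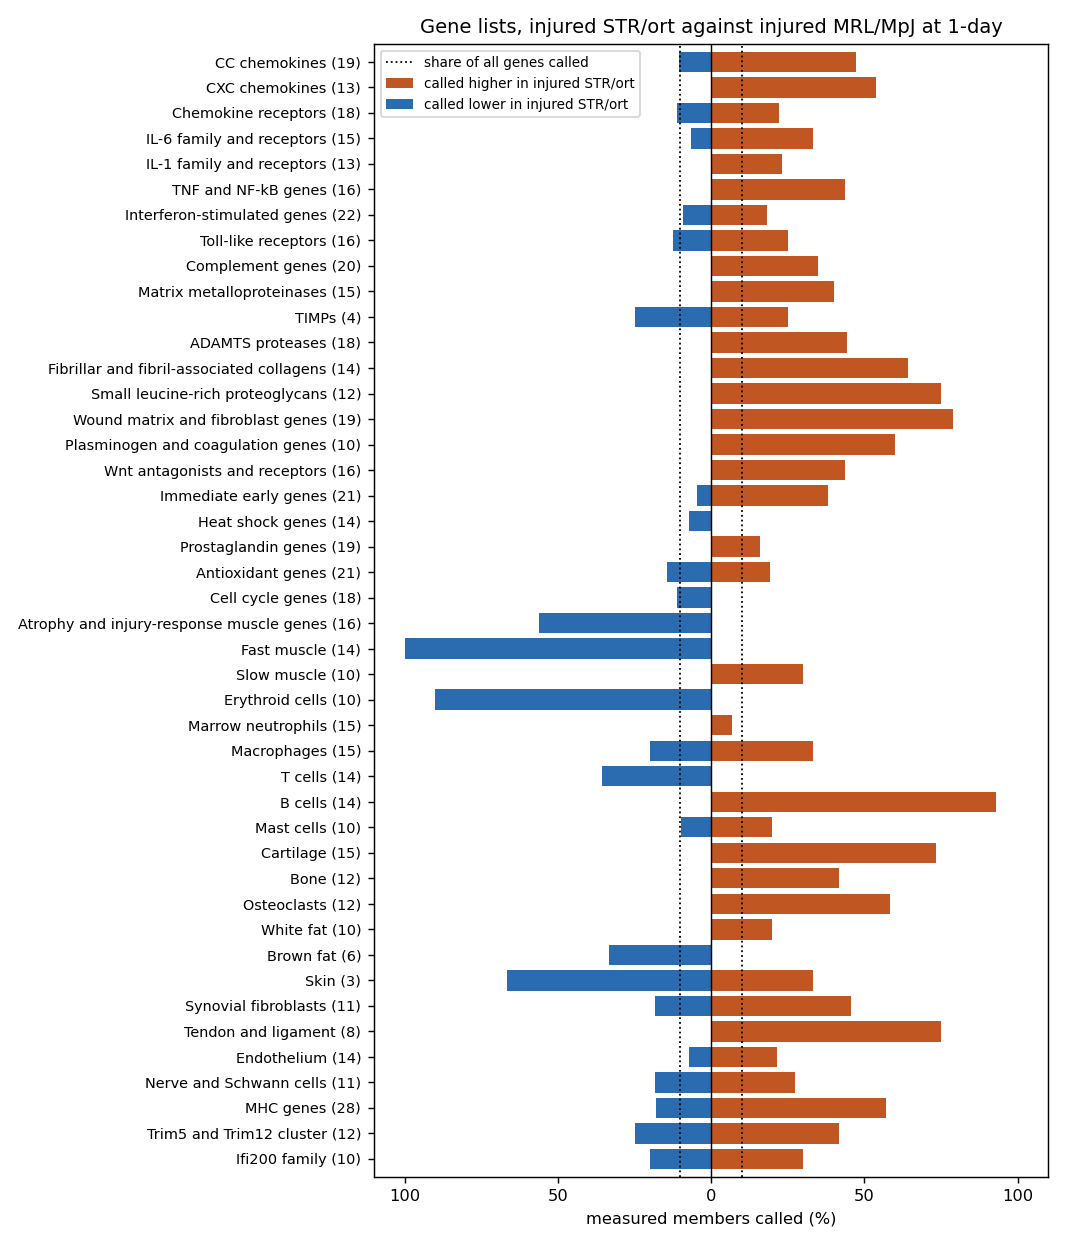
Share of the measured members of each gene list (number in brackets) called higher (right) or lower (left) in injured STR/ort, in percent. Dotted lines mark the shares of all genes, 10.2% higher and 10.1% lower. All 14 fast muscle genes were lower, while B cell, wound matrix, proteoglycan, tendon and cartilage lists reach furthest to the right.

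Among the differences with the smallest adjusted p, some were nearly all-or-none and others were moderate with little spread within a strain. Gm8210, a processed pseudogene entry (chr1:43189052-43189773), was at 145, 131, 145, 156 and 151 CPM in MRL/MpJ and at 0.0854, 0, 0.138, 0.0731 and 0 CPM in STR/ort (-10.86, SE 0.25, adjusted p = 8.10e-25), and at 0.466 CPM or less in C57BL/6. A pseudogene can take reads from its parent gene, which counts alone do not resolve. Gdpd3, a lysophospholipase, was at 3.85, 1.41, 2.85, 3.67 and 1.92 CPM in MRL/MpJ and at 53.7, 49.9, 46.4, 51.8 and 47.1 CPM in STR/ort (4.19, SE 0.13, adjusted p = 9.10e-21). The tetraspanin-like gene Tm4sf20 had 3 counts over the MRL/MpJ libraries and 862 over those of STR/ort. This is a ratio of 259 with a 95% counting interval of 88.3 to 1257. Its log2 fold change was 7.47 to 8.72 when single injured libraries were left out. The zinc finger gene Zfp979 was at 0.19 CPM or less in MRL/MpJ and 14.0 to 15.4 CPM in STR/ort (7.43, SE 0.29, adjusted p = 1.04e-18). Lower in STR/ort were Natd1 (-1.98, SE 0.09), the sorbitol dehydrogenase gene Sord (-1.26, SE 0.06), Ifitm6 (-1.94, SE 0.10) and Glo1, glyoxalase 1, at 166 to 209 CPM in MRL/MpJ and 63.1 to 78.5 CPM in STR/ort (-1.33, SE 0.07, adjusted p = 4.38e-16).

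The study singled out 21 candidates of MRL/MpJ, of which 15 were higher and 5 lower in injured STR/ort. That list was chosen on these libraries and is not independent evidence of a direction. Mamdc2, which encodes a secreted proteoglycan, was at 0.296, 0.619, 0.285, 0.269 and 0.457 CPM in MRL/MpJ and at 22.8, 25.9, 26.7, 27.999 and 26.7 CPM in STR/ort (6.03, SE 0.23, adjusted p = 5.67e-19). C57BL/6 was between them, at 11.4 to 20.4 CPM, and contralateral STR/ort joints were higher still, at 49.4 to 57.7 CPM. Capg, an actin capping protein of macrophages, was at 12.8 to 21.3 CPM and 85.5 to 104 CPM (2.58, SE 0.11, adjusted p = 1.71e-17). Lower in STR/ort were the glycosyltransferase gene B4galnt2 (-3.24, SE 0.19), Aox4 (-3.85, SE 0.43), Vwa5a (-1.30, SE 0.08) and Ccdc38 (-2.75, SE 0.21). Without injured STR/ort replicate 3 the value of Aox4, which is at 0.414 CPM or less in STR/ort, was -5.24. Of 9 genes the study names for 1-day, also chosen on these libraries, 6 were higher and 3 lower, 1 of the latter being the channel gene Trpm1 (-1.76, SE 0.38, adjusted p = 2.97e-04). With the RUVg factor 4 were higher and 0 lower, and Trpm1 was at -0.087 (adjusted p = 0.960).

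The interaction tests whether the difference between strains changed with injury, that is, whether STR/ort and MRL/MpJ responded differently. Injury changed 746 genes in STR/ort (4.31%) and 350 in MRL/MpJ (2.02%), and the responses themselves differed in 28 genes (0.162%), 4 with a higher (0.0231%) and 24 with a lower value in STR/ort (0.139%). This count is unstable. Leaving out 1 of the 20 libraries gave 6 to 76 genes, and 16 of the 20 moved it by over 1.5 times. It was 13, 8, 13 and 10 without injured MRL/MpJ replicates 1, 2, 4 and 5, 13, 8, 10 and 76 without injured STR/ort replicates 1, 3, 4 and 5, 17, 11, 6, 13 and 12 without contralateral MRL/MpJ replicates 1 to 5, and 7, 9 and 15 without contralateral STR/ort replicates 2, 4 and 5. Without both injured libraries numbered 5 it was 59. Hmox1, Aldh1a3, Fam124a, Itih5 and Ptn stayed called in all 20, and Folr2 in 19, while Hal was called in 7, Car4 in 6 and Col14a1 in 6.

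Hmox1, heme oxygenase, which breaks down heme from red cells, rose with injury in STR/ort by 1.03 (adjusted p = 3.04e-08), and its change in MRL/MpJ was 0.03 (adjusted p = 0.946). It was at 44.9 to 59.4 CPM in contralateral and 93.4 to 128 CPM in injured STR/ort joints, against 118 to 155 CPM and 129 to 159 CPM in MRL/MpJ. After injury every STR/ort library was still below every MRL/MpJ library, by a difference of -0.34 that was under the fold threshold, against -1.35 in contralateral joints (interaction 1.01, SE 0.15, adjusted p = 2.24e-03). Hal, histidine ammonia-lyase, rose in both strains, by 2.03 in STR/ort and 0.94 in MRL/MpJ (interaction 1.09, SE 0.22, adjusted p = 0.0304). Car4, a carbonic anhydrase, rose by 1.18 in STR/ort (adjusted p = 1.18e-03) with -0.27 in MRL/MpJ (interaction 1.46, SE 0.31, adjusted p = 0.0327). Its difference between injured joints, -0.62 (adjusted p = 0.0131), was at -0.40 (adjusted p = 0.102) without injured MRL/MpJ replicate 5, at -0.57 without injured STR/ort replicate 2 or 4, and at 0.32 (adjusted p = 0.587) with the RUVg factor.

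The 24 genes of the other direction include several that were higher in contralateral STR/ort than MRL/MpJ joints and nearer to MRL/MpJ after injury. Aldh1a3, which makes retinoic acid, was at 16.4 to 21.4 CPM in contralateral and 6.50 to 9.65 CPM in injured STR/ort joints, against 3.03 to 5.16 CPM and 3.57 to 5.33 CPM in MRL/MpJ (interaction -1.39, SE 0.21, adjusted p = 2.24e-03). Itih5, a hyaluronan-binding matrix protein gene, was at 132 to 172 CPM and 52.2 to 92.3 CPM in STR/ort, against 68.2 to 76.9 CPM and 50.6 to 55.4 CPM (interaction -0.84, SE 0.15, adjusted p = 0.0178). Ptn, pleiotrophin, a growth factor, had an interaction of -0.99 (SE 0.18, adjusted p = 0.0178) and Fam124a one of -1.21 (SE 0.21, adjusted p = 0.0163). Between injured joints the differences of Itih5 (0.23, adjusted p = 0.0931), Ptn (-0.25, adjusted p = 0.119) and Fam124a (-0.10, adjusted p = 0.624) did not pass, and with the RUVg factor Itih5 was called at 0.66 (adjusted p = 3.50e-03). Folr2, of resident macrophages, changed by -0.55 in STR/ort and 0.79 in MRL/MpJ (interaction -1.34, SE 0.25, adjusted p = 0.0178), with adjusted p = 0.0187 and 0.0110. Col14a1, a fibril-associated collagen, fell by 1.02 in STR/ort (adjusted p = 8.85e-05) with 0.20 in MRL/MpJ (interaction -1.22, SE 0.25, adjusted p = 0.0304).

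**Figure D5:**
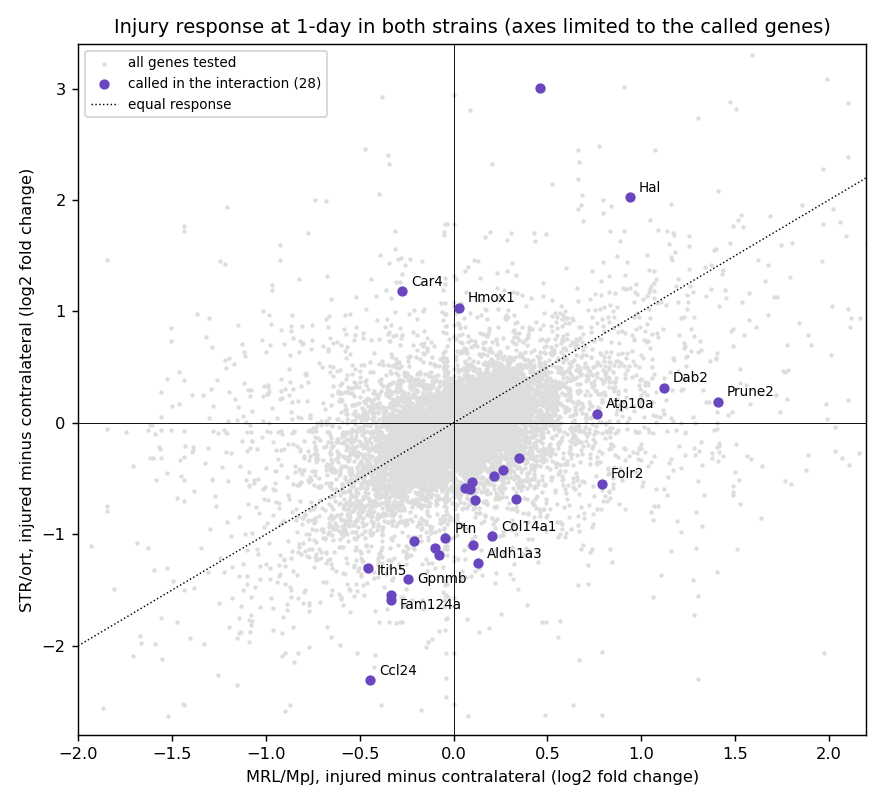
Log2 fold change of injured minus contralateral joints at 1-day in MRL/MpJ (horizontal) and STR/ort (vertical), with the 28 genes called in the interaction in colour, 14 of them named, and all genes within these axes in grey. Hal, Car4 and Hmox1 lie above the dotted line of equal response, and 24 of the 28 lie below it.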

How the data were processed

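Poly(A)+ RNA of whole knee joints was sequenced. The authors aligned reads with TopHat2 2.0.11 to mm10 and counted them per RefSeq gene with featureCounts, and deposited raw counts, not normalized. Reads were placed on the C57BL/6 reference, so reads with alleles of STR/ort or MRL/MpJ may align less often. The study names RUVseq on housekeeping genes and edgeR; the number of factors is not given in the sources used here.

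Of 17313 genes listed, 3 repeated entries were dropped, and 24 names had been turned into dates. The study's filter (2 counts in 5 libraries) removed 0 genes, so a fit with no count filter is identical. Counts were fitted with edgeR 4.0.16 (quasi-likelihood, TMM factors, Benjamini-Hochberg; R 4.3.3) on the 30 libraries at 1-day, 1 mean per strain and joint, and likewise for each other day on its own libraries. SE is the log2 fold change divided by the root of F. CPM used TMM factors over 100 libraries. Counts of 17310 genes were simulated with 50 genes changed per fold, all at a mean of 1 CPM or more, and no other difference. In the injured comparison 96% of genes raised 2-fold, 88% of those lowered 2-fold and 42% of those raised 1.5-fold were called. For the interaction these were 78%, 80% and 34%. Genes at lower levels, and data with many changed genes, are not covered by these shares.

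Alternatives were RLE factors, housekeeping scaling, 1 RUVg factor, filterByExpr, DESeq2 1.42.0, no fold threshold, the compared groups only, a replicate block and leaving out each library. Named genes were, per direction, the 8 with the smallest adjusted p without overlap, up to 4 called members per list, 5 interaction genes, 3 zero-count genes and the study's 2 lists; the text uses 106 of 197, and some genes are not reported here. Members and lists were chosen with earlier results of these data known. Positions and promoters are RefSeq, GRCm38.p6, matched by symbol for 16662 genes and synonym for 559.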

Additional observations from a re-analysis of the deposited data

Results flagged for a closer look

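In 26 of 212 sets of 5 injured libraries of 1 strain, over the 106 genes examined, 1 library stood farther from the other 4 than Dixon's 95% limit for 5 values allows. Chance flags about 1 in 20 groups, and genes of one tissue move together within a library. Of these 26, 15 were in libraries numbered 5. Replicate 2 of injured MRL/MpJ was the highest, in CPM, for Ccl7 at 16.9 and Timp1 at 95.6. Replicate 3 of injured MRL/MpJ was the highest, in CPM, for Marco at 3.7. Replicate 3 of injured MRL/MpJ was the lowest, in CPM, for Prelp at 98.1. Replicate 4 of injured MRL/MpJ was the highest, in CPM, for Cxcl3 at 0.895 and Fos at 18.8. Replicate 4 of injured MRL/MpJ was the lowest, in CPM, for Ptn at 14.9. Replicate 5 of injured MRL/MpJ was the highest, in CPM, for Ckm at 8789, Ryr1 at 2573, Glo1 at 209 and Car4 at 11.1. Replicate 5 of injured MRL/MpJ was the lowest, in CPM, for Il1a at 4.66. Replicate 1 of injured STR/ort was the highest, in CPM, for Mmp19 at 41.5. Replicate 1 of injured STR/ort was the lowest, in CPM, for Col5a3 at 79.2. Replicate 2 of injured STR/ort was the highest, in CPM, for H2-Ab1 at 225. Replicate 3 of injured STR/ort was the highest, in CPM, for Aox4 at 0.414. Replicate 5 of injured STR/ort was the highest, in CPM, for Cntfr at 5.23, Col14a1 at 104, Fos at 265, Egr1 at 166, Myh1 at 1942, Myh7 at 373, Ppargc1a at 7.12, C4b at 104.7 and Itih5 at 92.3. Replicate 5 of injured STR/ort was the lowest, in CPM, for Ifitm6 at 20.1.

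The response to injury differed between STR/ort and MRL/MpJ by the interaction test (edgeR quasi-likelihood test, adjusted p below 0.05) in genes named above. Their interaction values, in log2 units, were Col14a1 (-1.22), Hmox1 (1.01), Hal (1.09), Car4 (1.46), Aldh1a3 (-1.39), Folr2 (-1.34), Itih5 (-0.84), Ptn (-0.99) and Fam124a (-1.21). When each of the 20 libraries was left out in turn, Hal kept its call in 7 fits, Car4 in 6 and Col14a1 in 6, against 19 or all 20 for the others.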

How the results depend on the processing

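Between injured joints 3506 genes were called, and 3206 to 3785 under RLE size factors, housekeeping scaling, filterByExpr, DESeq2, a fit restricted to the groups compared and the replicate block. With 1 RUVg factor 2254 were called. Of the variance of that factor 82.0% lies between the 6 groups of strain and joint at 1-day. The factor separates STR/ort from MRL/MpJ, with C57BL/6 overlapping both, so scaling and the difference of these strains cannot be told apart. It ended the call of 18 genes examined, among them Ccl8, Mmp12, Fos, Egr1, Ibsp, Mepe, Tnfsf11, Ifit3 and Wif1, added that of Itih5 (0.66) and reversed Ankrd1 (0.57), Fbxo32 (0.23), Car4 (0.32) and Ptn (0.064). Fam124a, not called, was at 0.017 without injured STR/ort replicate 3 and at -0.197 without replicate 5, the range over single libraries left out. Of the 106 genes examined, 83 kept direction and call with the RUVg factor, 101 with housekeeping scaling and 105 with DESeq2.

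Without the fold threshold 7999 genes were called in injured joints, 8355 in contralateral joints, 5850 at 0-day, 9253 at 1-week and 7385 at 2-weeks, and 6580 were shared by injured and contralateral joints. Leaving out 1 library gave 3261 to 3655 injured calls, 2640 to 2822 shared calls and 6 to 76 interaction calls. Without both injured libraries numbered 5, an alternative chosen after seeing the data, these were 3381, 2666 and 59.

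With the replicate block 3513 genes were called in injured joints, 35 in the interaction and 2765 shared. Same-numbered injured and contralateral libraries of a strain had correlations of -0.21 to 0.39. Same-numbered injured libraries of different strains, which are of different animals, had -0.11 to 0.50. The numbers were not taken as pairs, and whether same-numbered injured and contralateral libraries are of the same animal was not tested. Contralateral joints come from injured mice, so the response and interaction tests may treat joints of the same animal as independent. Among the genes examined the block ended the call of Myh7 (1.15, adjusted p = 0.0963) and no other. Genes at a few counts per library are limited by depth, and a count of 0 gives only a bound.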
